A study of Arabidopsis thaliana with 22 samples.

Results

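Sorted epidermal cells of the Arabidopsis thaliana mutant atscl26 were compared with those of the wild type Col0 in seedling roots under the KCl control treatment. The comparison uses 5 of the 22 one-colour arrays of the series, 3 of Col0 and 2 of atscl26, and describes all 31524 transcript models (27143 loci) on the array. The other arrays hold the same genotypes in epidermis under KNO3 and in cortex under either treatment, with 2 or 3 arrays in each of 8 groups. Replicate 3 of the atscl26 epidermis KCl group was removed by the submitters for low quality.

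Both genotypes carried a GFP reporter of epidermal or cortical cells, and the marked cells were sorted by fluorescence from protoplasts of whole roots. Col0 is labelled wildtype. The header of a deposited table calls the mutant allele atscl26-2, and the kind of mutation is not stated in the labels or files. Seedlings grew for 9 days on medium with 0.1 mM KNO3 and 30 mM sucrose, per the protocols. By the source names they were 12 days old and were treated for 2 h with 5 mM KCl, whereas the protocol describes a move to fresh plates with 0.1 mM KNO3. Which version holds cannot be told from these sources, and the treatment is called KCl here, as in the sample titles. RNA was amplified before labelling with Cy3, since sorted cells yield little of it.

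SCL26 is a GRAS transcription factor, of the plant family that also holds SCARECROW, SHORT-ROOT and the DELLA repressors of gibberellin signalling. Gibberellin is a growth hormone that triggers the destruction of DELLA proteins, and the series asks how SCL26 connects gibberellin with nitrogen in shaping the root. The root epidermis has hair cells and non-hair cells in alternating files. A MYB factor, WER, leads to the non-hair fate through GL2, and the root hair fate needs CPC and RHD6. Beneath the epidermis lie the cortex and the endodermis, whose Casparian strip is a band of lignin built at CASP proteins.

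No transcript model differed between atscl26 and Col0 past an adjusted p of 0.05 (limma with 1 mean per group over the 22 arrays, Benjamini-Hochberg adjustment over 31524 models). The share called was 0%, and the smallest adjusted p was 0.484. At an unadjusted p under 0.05 there were 1423 models, or 4.51%, with 799 higher (2.53%) and 624 lower (1.98%) in atscl26. The number of models past the threshold was 167 with arrays weighted by their quality, 116 of them lower, and 25 without atscl26 replicate 2, 21 of them higher. The fit without atscl26 replicate 2 rests on a single mutant array, whose spread is taken from the other groups. The weighted fit gave Col0 replicates 1 to 3 weights of 0.54, 0.08 and 4.24, so its Col0 side rests mainly on replicate 3. A model had a median standard error of 0.77 on the log2 scale, and the median difference over all models was -0.06. The values below are therefore measured differences, none of which passed the test, and the number of arrays limits their precision. All levels are log2 values, and all differences are log2 differences (atscl26 minus Col0) ± SE from that fit.

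Col0 replicate 2 stood apart from the other epidermis KCl arrays. It correlated with them at 0.54 to 0.56 over all models, whereas the other 4 correlated with each other at 0.85 to 0.92. Its values were compressed, with an SD over models of 1.99 against 2.41 to 2.51. Its median difference from the mean of Col0 replicates 1 and 3 was 1.02 in the dimmest of 4 equal bins of models by level and -1.41 in the brightest. The genotype difference ran the opposite way. Its median was -0.29 in the dimmest bin, -0.44 in the next, 0.18 in the one above and 0.48 in the brightest. Without that array the medians of the 4 bins were 0.10, 0.15, 0.02 and -0.01, and the share of models with a difference below 0 went from 53.3% (46.7% above 0) to 42.9%. Most list medians are given with and without this array, while many single-gene differences are given with it only.

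**Figure D1:**
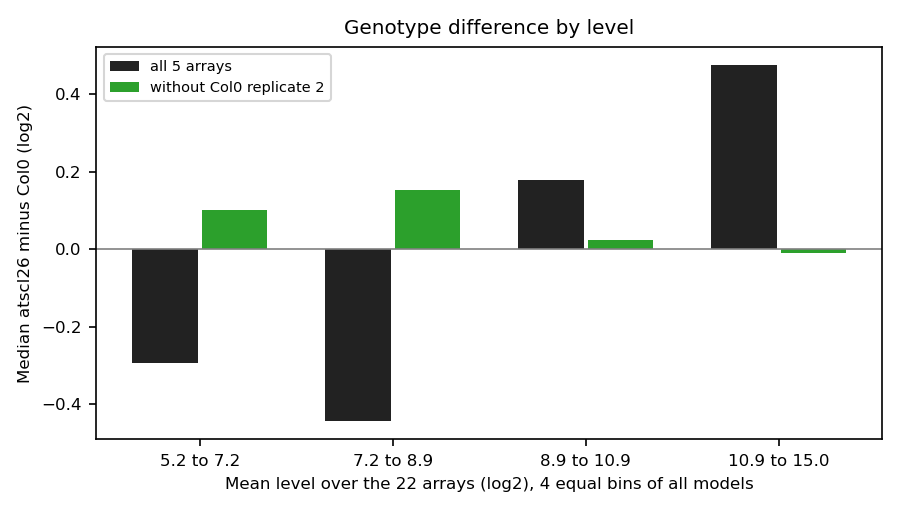
Median log2 difference between atscl26 and Col0 epidermis under KCl (y axis) for 4 equal bins of the 31524 models by mean log2 level over the 22 arrays (x axis). Black bars use all 5 arrays and run from -0.44 to 0.48, and green bars leave out Col0 replicate 2 and stay between -0.01 and 0.15.

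The authors' deposited table of group averages does not use that array. For 6 of 8 groups the authors' deposited table holds the mean of the deposited arrays to within 5e-09. Its Col0 epidermis KCl average differs from the mean of the 3 Col0 arrays by up to 2.61 (median 0.51). It equals, to within 5e-09, the mean of 3 arrays, which are Col0 replicates 1 and 3 and the array deposited as atscl26 epidermis KNO3 replicate 1. That array also enters the atscl26 KNO3 average of the same table, and it is counted as atscl26 in every KNO3 epidermis value here. Which label the array should carry cannot be told from these files, so differences from the authors' deposited table are given beside the fitted ones as the authors' values, with no test. In the authors' deposited table the median difference over all models was 0.06, with 43.8% of models below 0.

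Markers of the inner cell layers were lower in the atscl26 arrays, and most of the spread lay within Col0. All 13 models of the 11 endodermis markers had lower means in atscl26, with a median difference of -2.10, and all 4 cortex markers did, with a median of -2.47. Endodermis markers had a mean level of 11.37, 8.94 and 6.96 in Col0 replicates 1 to 3 and 7.22 and 6.94 in atscl26. Replicate 3 of Col0 thus lay with the atscl26 arrays, and the excess came from Col0 replicates 1 and 2. The cortex marker mean was 11.00, 11.47 and 8.65 against 8.69 and 7.61, with the same arrays high. In bulk samples, fewer cells of a type and less RNA per cell cannot be told apart, and whether other cell layers in the sorted samples have a part in any result below was not tested.

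CASP1, a scaffold of the Casparian strip, stood at 13.38, 11.89 and 7.71 in Col0 and at 8.81 and 7.70 in atscl26, a difference of -2.73 ± 1.49. ESB1, a dirigent-like protein needed for the strip, stood at 13.01, 10.88 and 8.11 against 8.05 and 7.31 in its model 1 (-2.98 ± 1.40). In CASP1 the groups overlapped, and in ESB1 the lowest Col0 array lay just above the atscl26 arrays. MYB36, the factor that switches on CASP genes, stood at 12.28, 8.63 and 6.68 against 6.38 and 6.14, and its difference was -2.94 ± 1.76. CASP2, CASP4, CASP5, the peroxidase PER64, the receptor kinase GSO1 and the transcription factors MGP and SCR had differences between -2.58 and -1.05. Of the 13 endodermis models, 3 did not overlap between the genotypes (ESB1 model 1, MYB36 and SCR). Over all models, 1512 were lower in both atscl26 arrays than in every Col0 array, which is 4.8%, and 2375 were higher in both, which is 7.53%.

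Among the cortex markers, AT1G62510 stood at 11.75, 10.59 and 9.04 in Col0 and 8.28 and 7.21 in atscl26 (-2.72 ± 1.11). AT1G09750, an aspartic protease gene, stood at 11.95, 10.74 and 9.13 against 8.48 and 6.90 (-2.92 ± 1.25). Both kept the genotypes apart, and in both the gap to Col0 replicate 3 was under 1 log2 unit. The invertase inhibitor gene C/VIF2 differed by -2.23 ± 1.13 and AT1G62500 by -1.02 ± 1.1, each with overlap. Without Col0 replicate 2 the cortex median was -2.01 and the endodermis median -2.06. Without Col0 replicate 1 they were -1.98 and -0.97, so the size of the endodermis difference rested on that array. Against Col0 replicate 3 alone the cortex median was -0.56, with 2 of 4 models lower, and the endodermis median 0.09, with 5 of 13 lower.

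Markers of non-hair cells leaned to atscl26, with 5 of 6 models higher and a median of 0.56 (0.94 without Col0 replicate 2). WER stood at 11.22, 7.73 and 13.51 in Col0 and 13.19 and 12.99 in atscl26, a difference of 2.27 ± 1.62. The 2 low values were those of Col0 replicates 1 and 2, the arrays with high inner-layer markers, and Col0 replicate 3 exceeded both mutant arrays. MYB23, a close relative of WER, stood at 11.28, 10.55 and 10.62 against 12.90 and 11.50 and did not overlap (1.38 ± 0.83). The homeodomain factor GL2 differed by 0.72 ± 0.88, TTG1 by 0.38 ± 0.51 and the single-repeat MYB protein TRY by 0.41 ± 0.92, all with overlap. EGL3, a bHLH partner of WER, was lower at -0.62 ± 1.13, with both atscl26 arrays just under the lowest Col0 array.

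TTG2, a WRKY factor downstream of WER that stood in no list, gave 1 of the widest gaps between the genotypes. Its level was 7.48, 9.66 and 7.53 in Col0 and 12.16 and 11.95 in atscl26, a difference of 3.83 ± 1.55 (4.55 without Col0 replicate 2). The mutant arrays lay over 2 log2 units above every Col0 array, Col0 replicate 3 with its high WER included. A second TTG2 model differed by 1.51. In the authors' deposited table the TTG2 difference was 3.22.

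Genes listed as root hair markers went both ways, and which cell files hold their RNA was not measured here. The list is not confined to genes that promote the hair fate, and GL3 stands in it while EGL3 stands among the non-hair markers. Of 12 models, 4 were higher and 8 lower, with a median of -0.56 that was -0.03 without Col0 replicate 2. COBL9, a COBRA-like protein needed for hair tip growth, stood at 10.48, 9.44 and 9.09 in Col0 and 7.53 and 7.70 in atscl26 (-2.05 ± 0.69). It was lower in both mutant arrays by over 1 log2 unit. CPC, the mobile MYB protein that permits the hair fate, stood at 12.29, 12.22 and 13.50 against 13.77 and 13.77 (1.1 ± 0.54), also without overlap. The NADPH oxidase gene RHD2 differed by 1.26 ± 0.90 and RHD6 by 1.08 ± 1.31. In the authors' deposited table RHD2 and RHD6 differed by 0.79 and 0.22. LRX1, EXPA7, EXPA18, RSL2, RSL4, PRP3 and GL3 had differences between -1.53 and -0.12, and RSL1 one of 0.09, all with overlap. Col0 replicate 2 was the highest array for LRX1, EXPA7, EXPA18, RSL2 and PRP3.

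Stele markers had a median of -0.57 (-0.06 without Col0 replicate 2), with 15 of 16 models lower and the phloem sucrose transporter SUC2 at -1.72 ± 0.63. Root cap markers had a median of -0.27 (0.25 without that array), and the NAC factors BRN1 and FEZ differed by -1.03 ± 0.91 and 0.43 ± 0.82. Neither list gave a model without overlap.

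**Figure D2:**
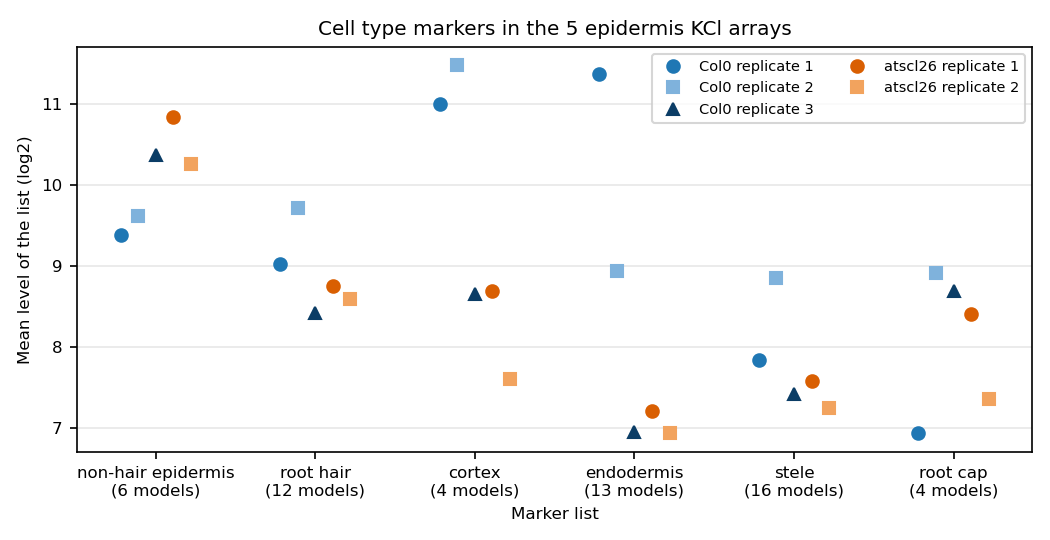
Mean log2 level (y axis) of 6 lists of cell type markers (x axis) in the 5 epidermis KCl arrays, 1 point per array. Col0 replicates 1 and 2 lie above the other arrays for cortex (11.00 and 11.47) and endodermis (11.37 and 8.94), and Col0 replicate 3 (8.65 and 6.96) lies with atscl26.

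SCL26 itself (AT4G08250) stood at 8.40, 11.26 and 7.55 in Col0 and 7.82 and 7.66 in atscl26. Apart from Col0 replicate 2, every value lay below the median of its array, and the genotypes overlapped. The difference was -1.33 ± 0.93, -0.23 without Col0 replicate 2 and -2.09 without Col0 replicate 3. In the authors' deposited table it was -0.61. Where the probes lie relative to the mutation is not stated in the labels or files, so the level is no check of the genotype label. The 13 models of the 10 loci nearest to SCL26, 5 on each side, had differences between -1.06 and 1.79, and 1 of them did not overlap, beside 7.53% (higher) and 4.8% (lower) of all models. The GRAS genes outside the DELLA group had 5 of 24 models higher and a median of -0.53 (-0.33 without Col0 replicate 2). SCL1 (1.35 ± 0.68) and SCL14 (1.63 ± 0.94), which acts in stress detoxification, were on the higher side. SCL3, which promotes gibberellin responses in the endodermis, stood at 11.23, 9.82 and 8.09 against 8.54 and 7.22 (-1.84 ± 1.02), in the order of the endodermis markers. SCL23, a relative of SCR, differed by -1.47 ± 0.97 and HAM4 by -1.56 ± 1.04.

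All 19 models of 14 lignin and phenylpropanoid genes had lower means in atscl26, with a median of -1.33 (-1.19 without Col0 replicate 2), while 53.3% of all models were below 0. At an unadjusted p under 0.05 there were 5 lower and none higher in limma, beside 1.98% and 2.53% of all models, and the same 5 models, of 3 loci, did not overlap, beside 4.8% of all models on the lower side. The mean level of the list was 10.66, 10.03 and 8.43 in Col0 and 8.54 and 7.85 in atscl26. Col0 replicate 3 lay close to the mutant arrays and replicates 1 and 2 above them, as for the endodermis and cortex markers. Against Col0 replicate 3 alone the median was -0.02, with 10 of 19 models lower.

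PAL4 was the clearest single difference of the lignin genes. It encodes a phenylalanine ammonia-lyase, the enzyme family at the entry to the pathway, and stood at 8.94, 9.48 and 8.96 in Col0 and 6.68 and 6.30 in atscl26. All 3 Col0 arrays were high, including replicate 3, so that PAL4 did not follow the inner-layer markers. The difference was -2.64 ± 0.48, a 6.22-fold lower level, with an adjusted p of 0.529 in limma. It was -2.46 without Col0 replicate 2 and -1.54 in the authors' deposited table. PAL4 passed in limma after quantile normalization (adjusted p = 0.0255), when arrays were weighted (0.0120) and when the 4 arrays of low correlation were left out (0.0367). On the Col0 side the weighted fit rests mainly on replicate 3.

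In most arrays of the other 6 groups PAL4 was near its level in the mutant. In Col0 epidermis under KNO3 PAL4 stood at 6.60, 6.60 and 7.26, and in atscl26 epidermis under KNO3 at 6.18, 6.25 and 6.74. In cortex it lay between 6.08 and 6.69 under KCl in both genotypes, and under KNO3 it stood at 8.08 and 6.46 in Col0 and 7.46, 6.52 and 6.50 in atscl26. The 3 Col0 epidermis KCl arrays thus held the highest levels of the series.

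The other lignin genes without overlap encode 4-coumarate:CoA ligases, which activate the acids used for lignin and flavonoids. The 3 models of 4CL1 differed by -3.10 ± 1.12, -2.81 ± 1.04 and -2.99 ± 1.14, and 4CL2 by -2.33 ± 1.05. Model 3 of 4CL1 stood at 12.09, 10.52 and 8.14 against 7.76 and 6.54, so that Col0 replicate 3 lay just above the mutant arrays. The paralogs PAL1 (-1.94 ± 1.64) and PAL2 (-0.58 ± 1.06) overlapped, and PAL1 was high in Col0 replicate 1 alone at 12.63. The laccase LAC4 differed by -1.26 ± 0.79, chalcone synthase CHS by -1.33 ± 1.73 and cinnamate hydroxylase C4H by -0.01 ± 0.51. LAC4, CHS and C4H differed by -0.17, -0.59 and -0.12 in the authors' deposited table. Genes of suberin, the other barrier polymer of the endodermis, had a median of -0.41 that was 0.14 without Col0 replicate 2. Of these, the fatty acyl reductase gene FAR1 stood at 5.66, 6.82 and 7.39 against 10.92 and 5.93, high in 1 mutant array alone (1.8 ± 0.92).

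Genes for abscisic acid, the hormone of water deficit, were collected into a list after values had been seen, because NCED3 and LEA4-5 stood among the smallest p-values. The counts for that list are therefore a description. Of 27 models of 19 genes, 20 were lower and 10 (9 loci) were lower without overlap, beside 4.8% of all models. The median was -0.89, and leaving out 1 array at a time it ran from -1.06 (without atscl26 replicate 1) to -0.48 (without atscl26 replicate 2). The list mean was 10.35, 9.94 and 9.92 in Col0 and 9.49 and 8.96 in atscl26, so the 3 Col0 arrays lay together above the mutant.

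NCED3, the rate-limiting enzyme of abscisic acid synthesis in drying tissue, stood at 10.20, 9.87 and 9.33 in Col0 and 7.76 and 6.96 in atscl26. Its difference was -2.44 ± 0.63, and -2.40 without Col0 replicate 2. LEA4-5, a protective protein that accumulates on water loss, stood at 10.13, 11.55 and 10.34 against 7.11 and 7.03, 12.1-fold lower (-3.60 ± 0.85). These 2 genes separated the genotypes by more than 1 and more than 2 log2 units. The phosphatase gene HAI1, induced by the hormone, stood at 11.62, 10.83 and 11.70 against 9.98 and 7.79 (-2.50 ± 0.92). The dehydrin gene RAB18 differed by -2.17 ± 0.87 in model 1, and the phosphatase gene ABI1 by -0.70 ± 0.55. KIN1 (-1.31 ± 0.74), HB-12 (-2.16 ± 1.72) and RD29A (-0.90 ± 1.42) were lower without overlap, and P5CS1, PP2CA and ABI5 overlapped, with differences of 0.46 ± 0.68, 0.05 ± 0.45 and -0.30 ± 0.83. The catabolic genes CYP707A1 and CYP707A3 were higher on average by 0.53 to 0.92 over their 4 models, with overlap. In the authors' deposited table, which leaves out Col0 replicate 2, these models ranged from -0.58 to 0.24, so their direction depended on the arrays used.

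Under KNO3 LEA4-5 ran the other way in epidermis. It stood at 7.18, 9.89 and 8.34 in Col0 and 9.58, 11.41 and 11.59 in atscl26, a difference of 2.39 ± 0.76, and NCED3 differed there by -0.02 ± 0.57. The genotype by nitrate interaction of LEA4-5 was -5.99 ± 1.14 and did not pass (adjusted p = 0.280 in limma). The abscisic acid list had medians of 0.46 in epidermis under KNO3, 0.19 in cortex under KCl and -0.29 in cortex under KNO3.

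Other named genes on the lower side included 3 transporter or channel genes. NHX2, a vacuolar potassium and sodium exchanger, stood at 11.75, 11.78 and 12.02 in Col0 and 8.88 and 9.28 in atscl26. The 3 Col0 arrays lay close together, and the mutant was 6.83-fold lower (-2.77 ± 0.67, model 2). The other NHX2 model differed by -3.04. PHT4;3, of a plastid phosphate transporter family, stood at 9.51, 11.66 and 10.94 against 8.52 and 8.54 (-2.17 ± 0.54, model 2), and its 3 models ranged from -2.17 to -0.43. TIP2;2, a water channel of the vacuole membrane, stood at 12.81, 10.62 and 9.66 against 7.55 and 7.86 (-3.32 ± 0.95). In TIP2;2 the 3 Col0 arrays were in the order of the endodermis markers, and the lowest of them still exceeded the mutant by over 1 log2 unit.

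BGAL14, a beta-galactosidase, stood at 8.08, 9.54 and 9.04 in Col0 and 6.34 and 6.77 in atscl26 (-2.33 ± 0.48). GAE2, an epimerase that makes the sugar of pectin, stood at 11.81, 11.11 and 11.40 against 9.62 and 9.56 (-1.85 ± 0.49). The groups did not overlap in either, and the Col0 arrays of BGAL14 were spread over more than 1 log2 unit. PME3, a pectin methylesterase with 1 of the widest gaps between the genotypes, stood at 12.51, 9.54 and 8.88 against 6.33 and 6.59 (-3.85 ± 1.77), high above all in Col0 replicate 1.

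Among the remaining lower genes, BPS3, a relative of BYPASS1, differed by -3.28 ± 0.74, from 11.19, 11.12 and 10.27 to 8.03 and 7.13. SRC2, a C2-domain protein, stood at 14.10, 13.41 and 12.72 against 10.74 and 10.94 (-2.57 ± 0.73). The carbonic anhydrase BCA3 stood at 8.68, 9.42 and 11.95 against 7.22 and 6.40 (-3.21 ± 0.87). Unlike most genes above, BCA3 was highest in Col0 replicate 3. SPS1, a solanesyl diphosphate synthase, differed by -2.36 ± 0.68. FSD1, an iron superoxide dismutase, stood at 10.89, 9.71 and 11.43 against 7.18 and 7.17, 11.3-fold lower (-3.50 ± 1.06), and its other model differed by -3.13. IQD18, a calmodulin-binding IQ-domain protein, differed by -3.16 ± 1.11 and the defensin-like LCR69 by -3.20 ± 1.45, each over 2 log2 units below all Col0 arrays in both mutant arrays.

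**Figure D3:**
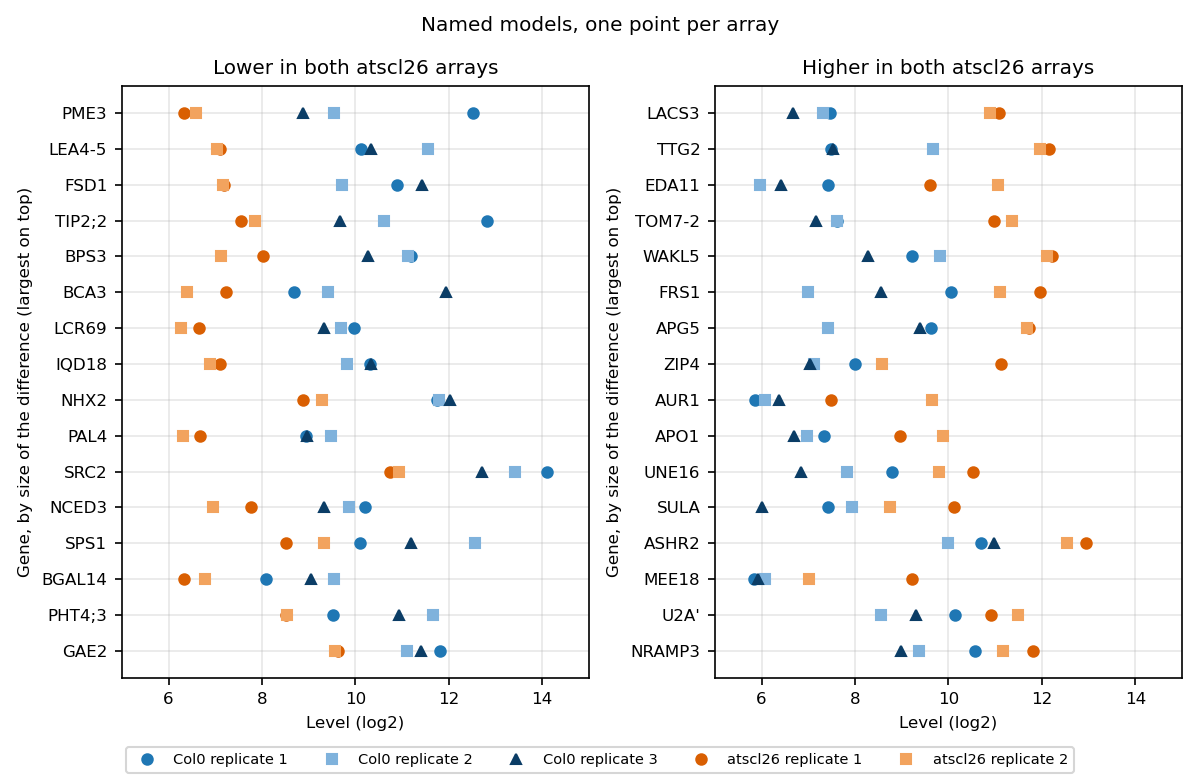
Log2 level (x axis) of the 16 lower and 16 higher named genes (y axis, ordered by the size of the difference), 1 point per array with Col0 in blue and atscl26 in orange. The genes were chosen by p or by the gap between the groups, so the separation is part of the choice. The mutant replicates lie close together for LEA4-5 (7.11 and 7.03) and far apart for ZIP4 (11.12 and 8.58).

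The model with the smallest p of all was AT4G11100, a locus with no symbol in the reference, at 5.77, 6.16 and 5.92 in Col0 and 10.36 and 8.72 in atscl26 (3.59 ± 0.61, adjusted p = 0.484 in limma). The 3 Col0 arrays were near the lowest value on the arrays and both mutant arrays were far above it. WAKL5, a wall-associated kinase-like receptor, stood at 9.21, 9.82 and 8.28 against 12.21 and 12.12 (3.06 ± 0.74). LACS3, a long-chain acyl-CoA synthetase, stood at 7.46, 7.32 and 6.66 against 11.09 and 10.89, 14.3-fold higher (3.84 ± 1.24). In WAKL5 and LACS3 the replicates of atscl26 were nearly equal, and both genes exceeded Col0 by over 2 log2 units in every pair of arrays.

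Some higher genes act in organelles, as do lower ones such as PHT4;3 and TIP2;2, and the share of such genes was not counted. TOM7-2, a subunit of the mitochondrial import pore, stood at 7.61, 7.61 and 7.17 against 10.98 and 11.37 (3.71 ± 1.29). SULA, which acts in plastid division, differed by 2.31 ± 0.55 and APO1, a plastid RNA-binding protein needed for photosystem I, by 2.42 ± 0.63. APG5, needed to form autophagosomes, stood at 9.63, 7.41 and 9.40 against 11.72 and 11.68 (2.88 ± 1.02), and was lowest in Col0 replicate 2. The metal transporters ZIP4, of the zinc uptake family, and NRAMP3, which releases iron and manganese from the vacuole, differed by 2.46 ± 0.61 and 1.85 ± 0.52. ZIP4 stood at 8.00, 7.13 and 7.03 against 11.12 and 8.58, so the size of its difference rests on 1 mutant array.

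The nuclear genes on the higher side were FRS1, a relative of a far-red light signalling factor (3.0 ± 0.72), UNE16, a MYB-related factor (2.34 ± 0.68), ASHR2, a SET-domain protein (2.19 ± 0.63), and U2A', a subunit of the U2 spliceosome particle (1.85 ± 0.57). FRS1 stood at 10.05, 7.0 and 8.55 against 11.96 and 11.11 and gave 2.23 without Col0 replicate 2. EDA11 and MEE18, named for embryo sac and embryo mutants, differed by 3.73 ± 1.15 and 2.18 ± 0.64. MEE18 stood at 5.83, 6.07 and 5.93 against 9.22 and 7.02, and its difference was 1.08 without atscl26 replicate 1 and 3.28 without atscl26 replicate 2. Where a named gene had a second model on the array, all its models had the same sign, as in FRS1 (1.94 and 3.0), UNE16 (1.72 and 2.34) and ASHR2 (1.34 and 2.19).

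Cell cycle genes had 10 of 14 models higher and a median of 1.06, the highest of the 26 lists with all arrays. Without Col0 replicate 2 it was 0.55, below the 0.94 of the non-hair markers, and against Col0 replicate 3 alone it was -0.33, with 8 of 14 models lower. At an unadjusted p under 0.05 there were 3 higher in limma, beside 2.53% of all models, and 5 of 14 did not overlap on the higher side, beside 7.53% of all models. AUR1, a mitotic Aurora kinase, stood at 5.85, 6.08 and 6.37 in Col0 and 7.49 and 9.64 in atscl26 (2.46 ± 0.64). CYCB1;1, the cyclin of the G2 to M step, stood at 7.60, 7.51 and 7.54 against 10.07 and 8.61 (1.79 ± 0.82). The 3 Col0 arrays were level for both, and the mutant arrays were higher by unequal amounts, with AUR1 at 1.39 without atscl26 replicate 2.

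The mitotic kinase gene CDKB2;1 stood at 8.49, 7.11 and 10.76 against 11.23 and 10.95 (2.30 ± 1.08). Its value in Col0 replicate 3 was close to the mutant arrays. The replication genes ETG1 (1.68 ± 0.99), MCM2 (1.65 ± 1.07) and PCNA1 (0.90 ± 0.73) were likewise high in Col0 replicate 3, at 9.96, 11.59 and 12.41 against 10.36 to 10.77, 10.64 to 11.47 and 12.04 to 12.53 in atscl26. CYCD3;1, a cyclin of the entry into the cycle, differed by 1.22 ± 0.80 and CYCA2;1 by -1.81 ± 0.96. The list mean was 8.36, 8.48 and 9.96 in Col0 and 9.41 and 9.94 in atscl26, the reverse of the order seen for endodermis markers.

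Gibberellin genes were lower on average, and this rested on Col0 replicate 2. The median was -0.60 for biosynthesis (14 models), -0.78 for catabolism (12), -0.36 for signalling (12) and -0.63 for the GASA peptides (14), which gibberellin regulates. Without Col0 replicate 2 the 4 medians were -0.04, 0.11, 0.02 and 0.21. GA2OX1, which inactivates gibberellin, shows the pattern at 6.47, 9.38 and 6.86 against 6.92 and 6.54 (-0.84 ± 0.72), with that array alone high. The DELLA genes RGL2 and RGL3 and the receptor GID1A were also highest there.

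A few gibberellin genes did not follow that array alone. GA3OX1, which makes the active hormone, stood at 10.62, 10.64 and 6.51 in Col0 and 6.77 and 6.14 in atscl26 (-2.80 ± 1.66), high in the same 2 Col0 arrays as the endodermis markers. GASA1 stood at 14.94, 11.25 and 10.59 against 6.97 and 8.60, giving the lowest difference of the gibberellin lists (-4.47 ± 1.84) with no overlap. AT2G14900, a further GASA gene, stood at 12.22, 9.31 and 6.84 against 6.82 and 6.46 (-2.81 ± 1.79), in the order of the endodermis markers and with almost no gap. The DELLA gene GAI stood at 10.57, 11.62 and 10.52 against 9.52 and 10.45 (-0.92 ± 0.49), and RGA at 8.81, 7.75 and 9.33 against 8.76 and 7.35 (-0.57 ± 0.67). GA20OX5 (-1.35 ± 0.70) and GA20OX2 (-1.01 ± 0.86), oxidases of the step before GA3OX1, were lower without overlap, and KAO1 (1.19 ± 0.83) was higher with overlap.

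Nitrogen genes showed no common direction. Uptake and reduction genes had 6 of 18 models higher and a median of -0.16 (-0.02 without Col0 replicate 2). The low-affinity nitrate transporter NRT1.2 stood at 11.73, 12.01 and 12.54 against 10.73 and 11.54 (-0.95 ± 0.73), the only model of that list without overlap. CLCa, which loads nitrate into the vacuole, differed by 1.47 ± 1.23, and the high-affinity transporter genes NRT2.4 and NRT2.5 by 1.15 ± 1.13 and -1.48 ± 1.01. CLCa, NRT2.4 and NRT2.5 differed by 0.90, 0.30 and -0.05 in the authors' deposited table. Genes that supply reductant had 9 of 10 models higher and a median of 0.39 that was 0.14 without Col0 replicate 2 and -0.41 in the authors' deposited table. In G6PD3, the leading member, the low value was Col0 replicate 2 (13.03, 7.94 and 10.98 against 11.59 and 12.75; 1.52 ± 0.96).

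Regulators of the nitrate response had a median of 0.47 with all arrays and -0.31 without Col0 replicate 2, so the list changed sign. LBD39, a repressor of nitrate-responsive genes, was an exception with level Col0 arrays. It stood at 11.77, 11.75 and 11.41 in Col0 and 10.29 and 8.99 in atscl26, a difference of -2.0 ± 0.88. Its relative LBD38 stood at 11.95, 8.16 and 10.62 against 12.47 and 11.53 (1.75 ± 0.86), and BT1 at 10.75, 10.99 and 7.67 against 7.87 and 7.35 (-2.19 ± 1.00). TCP20, a factor that binds nitrate-responsive promoters, differed by -1.32 ± 0.75. In ammonium transport and assimilation, 12 of 25 models were higher, with a median of -0.04. The transporter AMT1;3 stood at 8.93, 10.78 and 8.87 against 11.63 and 11.64 (2.1 ± 1.1) and was higher in both mutant arrays than in any Col0 array. The urea transporter DUR3 differed by 2.41 ± 1.40 with overlap, its Col0 values spanning 6.45 to 12.07.

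The auxin list had a median of -0.76 (-0.17 without Col0 replicate 2) and held members without overlap in both directions, 3 higher and 3 lower of 25, beside 7.53% and 4.8% of all models. ARF8, an auxin response factor, stood at 6.87, 5.90 and 7.85 in Col0 and 10.31 and 9.36 in atscl26 (2.96 ± 1.19). The influx carrier AUX1 stood at 12.36, 11.09 and 11.82 against 12.88 and 12.91 (1.13 ± 0.56). Both were higher in the mutant arrays than in every Col0 array. The efflux carriers PIN4 (-2.12 ± 1.00) and PIN7 (-1.44 ± 0.79) were lower without overlap in 1 model each. LBD16, a factor of lateral root founder cells, stood at 10.98, 9.98 and 6.76 against 7.09 and 6.64 (-2.38 ± 1.16), again high in Col0 replicates 1 and 2. Cytokinin genes had 7 of 22 models higher and a median of -0.56 (-0.23 without that array). The response regulator genes ARR15 (-1.20 ± 0.71) and ARR7 (-1.20 ± 0.81) were lower without overlap.

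Water channels of the plasma membrane were lower in 16 of 17 models, with a median of -0.40. The direction rested on Col0 replicate 1, without which the median was 0.26. Their mean level was 13.26, 12.02 and 10.76 in Col0 and 11.52 and 11.26 in atscl26, so that Col0 replicate 3 lay below the mutant, and against it alone 3 of 17 models were lower. PIP2;1 stood at 14.53, 9.85 and 9.80 against 9.57 and 8.80 (-2.21 ± 1.60), PIP2;2 differed by -1.65 ± 1.16 and PIP2;7 by -1.14 ± 0.54. Expansins, which loosen cell walls, had 9 of 24 models higher and a median of -0.36 that was 0.12 without Col0 replicate 2.

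Stress lists varied with the arrays used. Heat shock genes had a median of -0.29 with all arrays and -0.90 without Col0 replicate 2, which held low values of the bright members such as HSP70 (14.78, 10.32 and 14.28 against 14.37 and 13.08). The median was 0.32 without Col0 replicate 1 and 0.21 without atscl26 replicate 2. HSFA3, a heat shock factor that also acts in drought, was lower in both mutant arrays than in Col0, at 10.23, 9.43 and 10.48 against 7.66 and 7.56 (-2.44 ± 0.84). Genes of wounding and protoplasting had 17 of 26 models higher and a median of 0.20, which was -0.19 without that array. WRKY53 (1.11 ± 0.68) was higher and RAP2.6 (-1.37 ± 0.94) lower without overlap, so this list gave no single direction.

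Iron deficiency genes had 4 of 20 models higher and a median of -0.60 (0.02 without Col0 replicate 2). The ferritin FER1, an iron store that is low when iron is scarce, stood at 11.70, 10.15 and 10.12 in Col0 and 8.58 and 9.24 in atscl26 (-1.75 ± 0.63) and did not overlap. IRT2, a transporter of the epidermis under iron deficiency, differed by -1.89 ± 0.70 and -1.88 ± 0.75 in its 2 models, where Col0 replicate 3 lay at mutant levels. Phosphate starvation genes had a median of -0.19 (-0.16 without that array), with the acid phosphatase PAP10 (-2.03 ± 1.37) lower without overlap and SPX1 (-1.67 ± 0.98) with overlap.

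Over the 26 lists apart from abscisic acid, 21 medians were below 0 with all arrays, 15 without Col0 replicate 2 and 16 in the authors' deposited table. In 10 lists the median changed sign without that array, in 4 without Col0 replicate 1, in 2 without Col0 replicate 3 and in 3 without either atscl26 array. Against Col0 replicate 3 alone, a version added after seeing the data, 13 lists changed sign, among them the endodermis and cell cycle lists. Cortex markers kept a median below 0 and non-hair markers one above 0 in all of these versions. The phenylpropanoid, GRAS and auxin lists also stayed below 0, though only at -0.02, -0.01 and -0.01 against Col0 replicate 3 alone.

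**Figure D4:**
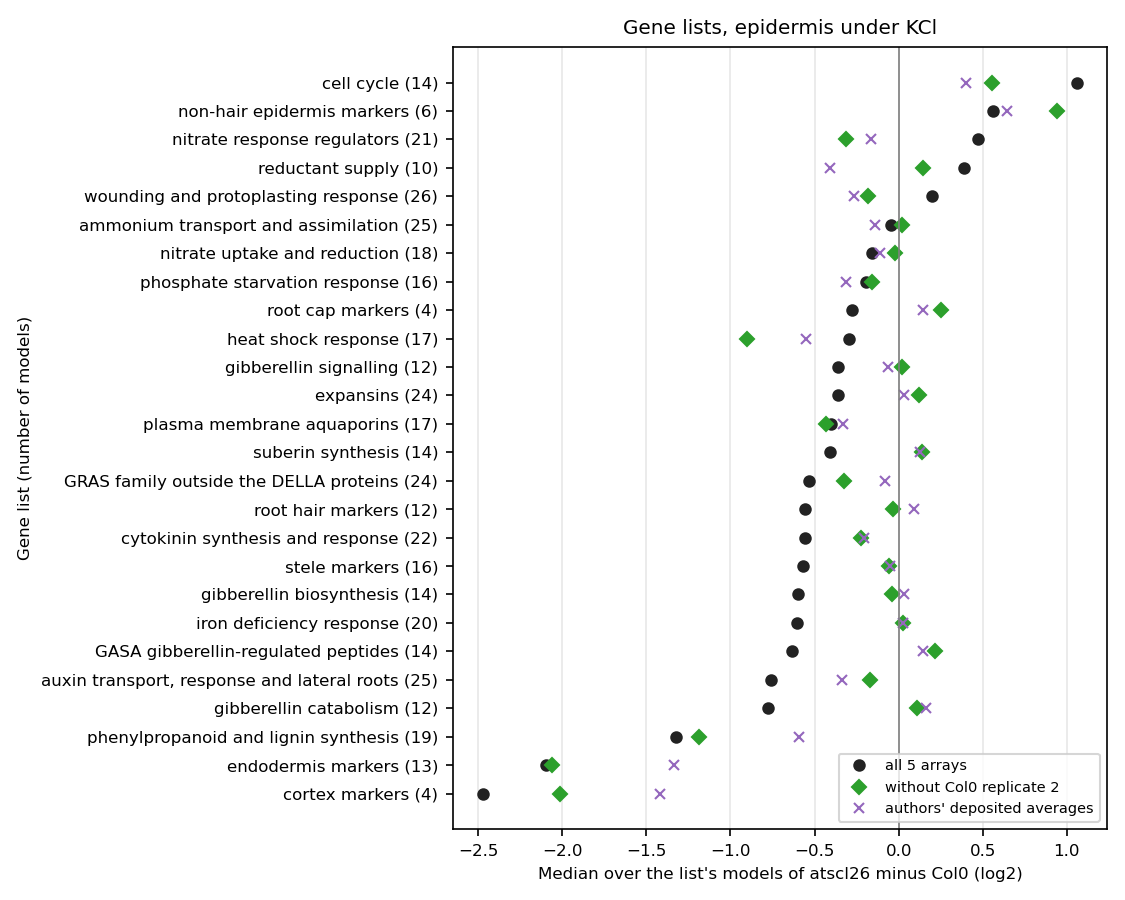
Median log2 difference (x axis) over the models of each of 26 gene lists (y axis, number of models in brackets). Circles use all 5 arrays, diamonds leave out Col0 replicate 2, and crosses use the authors' deposited averages. Cortex (-2.47) and endodermis (-2.10) lie lowest and cell cycle (1.06) highest with all arrays.

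The genotype difference under KCl was then set against that under KNO3 in the same cell type. The array deposited as atscl26 epidermis KNO3 replicate 1, whose label is in doubt as described above, counts here as atscl26. The genotype by nitrate interaction in epidermis passed in no model (0%), with a smallest adjusted p of 0.280 and 1934 models (6.14%) at an unadjusted p under 0.05 in limma. SRC2 stood at 8.84, 12.43 and 10.07 in Col0 and 13.52, 13.00 and 13.77 in atscl26 under KNO3, opposite to KCl, and its interaction was -5.55 ± 0.98 (adjusted p = 0.280). AUR1 stood at 9.17, 8.82 and 8.07 in Col0 and 7.30, 5.98 and 6.45 in atscl26 under KNO3, also opposite (interaction 4.57 ± 0.86, adjusted p = 0.280). WAKL5 stood at 11.58, 11.82 and 11.62 in Col0 and 11.68, 10.71 and 9.76 in atscl26 under KNO3, so its Col0 level there was near that of the mutant under KCl.

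The marker lists differed between treatments as well. In epidermis under KNO3 all 13 endodermis models and all 4 cortex models had higher means in atscl26, with medians of 0.44 and 1.8, and all 6 non-hair models had lower means, with a median of -0.50. The phenylpropanoid median there was 0.68, with 6 of 19 models lower, and the cell cycle median -0.68, with 11 of 14 lower. Each of these 5 lists thus had the opposite sign to KCl. Under KNO3 the cortex marker mean was 8.1, 7.7 and 9.4 in Col0 and 8.4, 10.5 and 11.6 in atscl26. The non-hair mean was 10.4, 9.5 and 10.6 against 10.5, 9.3 and 8.3. The excess of cortex markers thus lay in atscl26 replicates 2 and 3, and that of endodermis markers in replicate 3 (10.48). The part of other cell layers in these signs was not tested. Of the 3887 models that did not overlap under KCl, 163 did not overlap the same way under KNO3 and 285 the other way. Under KNO3 as a whole, 5.57% of models did not overlap on the higher side and 11% on the lower side.

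In cortex under KCl the genotype difference passed in no model (0%), with 409 models (1.3%) at an unadjusted p under 0.05 in limma. The genotype by cell type interaction passed in none either (0%), with a smallest adjusted p of 0.983 and 790 models (2.51%) at an unadjusted p under 0.05. Under KNO3 no model passed in epidermis (0%, smallest adjusted p = 0.0664, 1633 or 5.18% unadjusted) or in cortex (0%, 0.198, 1938 or 6.15% unadjusted).

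Of the 32 genes named by p or gap, 11 had the same sign in epidermis under KNO3, 21 in cortex under KCl and 28 in cortex under KNO3. The share with the same sign over all models was not counted. Over all 31524 models the KCl epidermis difference correlated with these 3 at -0.03, 0.04 and 0.38, as a description across models, which are not independent. No array is shared between these comparisons under the deposited labels. Cortex under KNO3 also holds a Col0 array of low correlation with the others, replicate 1 with a median of 0.68. The non-hair marker mean there was 9.57 and 8.20 in Col0 and 10.17, 10.65 and 10.49 in atscl26. Its list medians were 1.58 for non-hair, -0.09 for cortex, -1.16 for endodermis and -1.51 for phenylpropanoid genes. These 4 signs were those of epidermis under KCl, and the part of other cell layers in cortex under KNO3 was not tested. TTG2 stood at 8.61 and 6.64 in Col0 and 8.31, 11.48 and 10.69 in atscl26 in that condition. PHT4;3 and BCA3, lower in epidermis under KCl, differed by 0.47 ± 0.49 and 0.59 ± 0.78 in cortex under KCl. In cortex under KCl, atscl26 replicates 1 to 3 had non-hair marker means of 8.27, 8.76 and 10.74. Their cortex marker means were 10.9, 10.4 and 8.26, so replicate 3 stood apart in both.

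**Figure D5:**
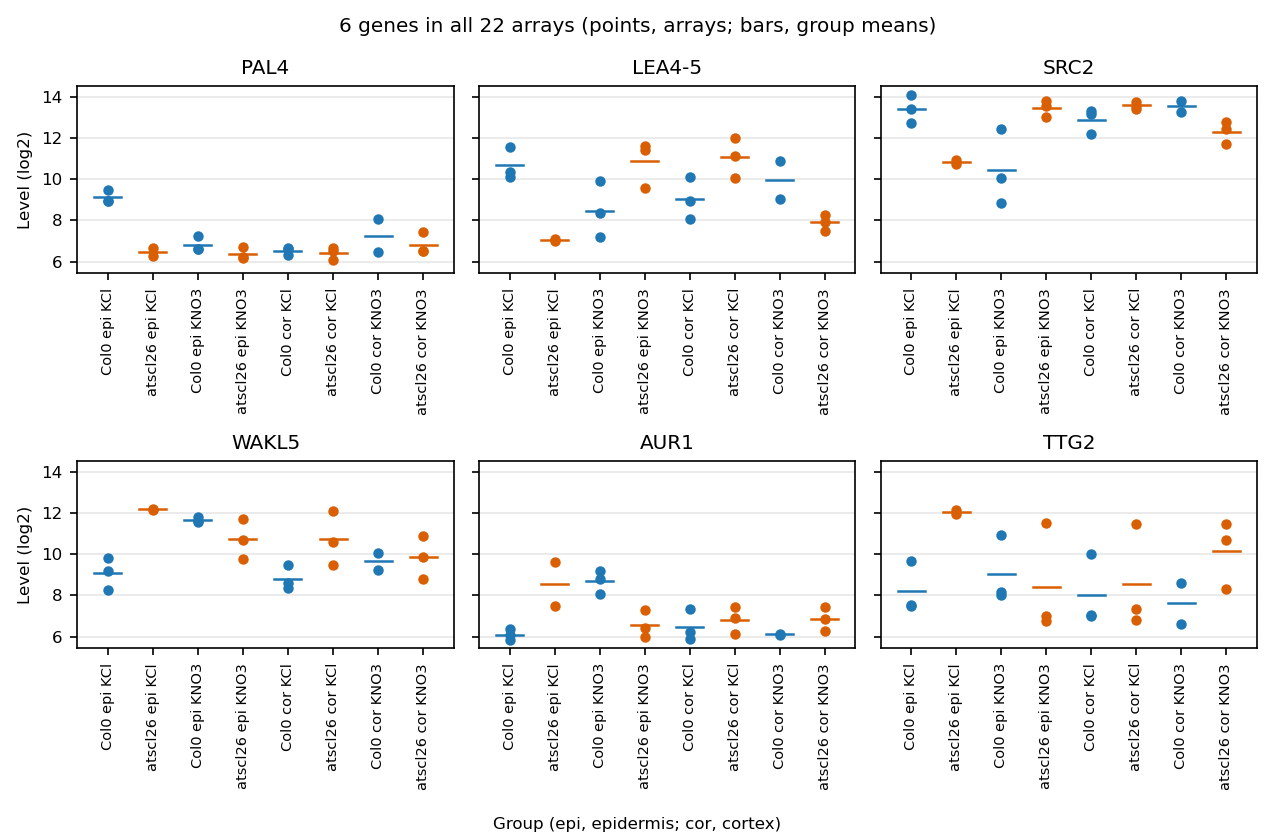
Log2 level (y axis) of 6 genes in the 22 arrays by group (x axis), with 1 point per array and a bar at each group mean. PAL4 is high in Col0 epidermis under KCl (8.94 to 9.48), while SRC2 and AUR1 differ between the genotypes in opposite directions under KCl and KNO3 in epidermis.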

How the data were processed

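The data are 22 one-colour NimbleGen arrays of sorted root cells, in 8 groups taken from the labels. Per the submitters' processing notes the deposited log2 values were made by RMA (settings and version not given in the sources used here), with 1 value per transcript model, and 2 of 24 arrays were removed by the submitters. A further file holds the authors' log2 group averages, which entered no test. No further normalization was applied. Group means were fitted to all arrays in limma 3.58.1 (R 4.3.3; 14 residual degrees of freedom, 17.7 with eBayes), 6 contrasts were tested, and p-values were adjusted by Benjamini-Hochberg over 31524 models. Replicates are called biological in the labels, with no further detail.

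Genes were described by 26 lists of 355 loci and named by a rule: SCL26, the 12 higher and 12 lower models with a symbol and the smallest p, the 6 with the widest gap in each direction, all markers, and up to 4 members per list by p. Some genes that the rule names are not reported here. Members and lists were chosen with earlier results of these data known, and the abscisic acid list and some further list members were named after values were seen. Names come from a TAIR10.1 gene table, which holds the locus of 30935 models. Sequences and coordinates were not used here. Alternatives were quantile normalization, leaving out dim models, array weights, an intensity trend, the 5 arrays alone, locus means, a replicate block, and leaving out arrays.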

Additional observations from a re-analysis of the deposited data

Results flagged for a closer look

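In 9 named genes the genotypes did not overlap in epidermis under KCl and again did not overlap, in the opposite direction, in another condition. These genes were named by p or gap under KCl, so the lack of overlap there is part of the choice. Of all 3887 models without overlap there, 285 did not overlap the other way in epidermis under KNO3 and 163 the same way. No such count over all models is given for cortex. Differences are atscl26 minus Col0 on the log2 scale ± SE, and none of the interaction tests passed in limma. Against epidermis under KNO3, SRC2 differed by -2.57 under KCl and 2.98 under KNO3 (interaction -5.55 ± 0.98, adjusted p = 0.280), and AUR1 by 2.46 and -2.11 (4.57 ± 0.86, adjusted p = 0.280). TIP2;2 differed by -3.32 and 2.57 (-5.89 ± 1.28, adjusted p = 0.366) and GAE2 by -1.85 and 1.24 (-3.09 ± 0.66, adjusted p = 0.363). NRAMP3 differed by 1.85 and -0.98 (2.82 ± 0.70, adjusted p = 0.544) and APG5 by 2.88 and -1.25 (4.14 ± 1.36, adjusted p = 0.705).

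Against cortex under KCl, PHT4;3 differed by -2.17 in epidermis and 0.47 in cortex (interaction -2.65 ± 0.73), BCA3 by -3.21 and 0.59 (-3.80 ± 1.17), and SRC2 by -2.57 and 0.69 (-3.26 ± 0.98), each with an adjusted p of 0.983 in limma. MEE18 differed by 2.18 in epidermis under KCl and -0.68 in cortex under KNO3, and that difference between conditions was not tested. Under KNO3 the endodermis marker mean of epidermis was 7.05, 8.53 and 10.48 in the atscl26 arrays and 7.08, 8.55 and 7.73 in the Col0 arrays, and the part of other cell layers in these opposite signs was not tested.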

How the results depend on the processing

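No model passed in epidermis under KCl with all arrays, and the count stayed at 0 with dim models left out, an intensity trend, the 5 arrays alone, locus means and the replicate block. It was 1 with quantile normalization and 1 without the 4 low-correlation arrays (PAL4 both times), 167 with array weights, and 0 to 25 leaving out 1 array at a time. The genotype by nitrate interaction went from 0 to 90 with array weights, to 2 without the 4 low-correlation arrays, and ranged from 0 to 4 leaving out 1 array. The genotype by cell type interaction went from 0 to 7 with array weights and ranged from 0 to 1. In the other conditions, array weights gave 249 models in cortex under KCl and 91 in epidermis under KNO3. Leaving out the 4 low-correlation arrays gave 37 in cortex and 14 in epidermis under KNO3, and leaving out dim models gave 1 in the latter. The causes were not tested. Models without overlap ranged from 4859 to 6023 on the higher side and from 3361 to 5961 on the lower side leaving out 1 array, since fewer arrays separate more easily. SCL26 turned to 0.0343 with array weights, which gave Col0 replicates 1 to 3 weights of 0.54, 0.08 and 4.24. Of 437 values of the 34 named models under other settings, 419 kept direction and side of the threshold and 17 passed it. This count is no measure of stability, since most of these models were named by p or gap in the same arrays. Where the groups do not overlap, leaving out 1 array cannot change the sign. Leaving out dim models, the intensity trend and the 5 arrays alone do not alter the difference itself. List medians moved by more than 1 SD in 41 of 297 values, where the SD is that of the list mean over the 3 Col0 arrays. Lists that vary much among these arrays therefore rarely count as moved, even with a change of sign. The endodermis median, -2.10 with all arrays and 0.09 against Col0 replicate 3 alone, did not. With Col0 replicate 3 as the only Col0 array, a setting chosen after seeing the data, 12 rather than 21 of 26 lists had a median below 0. Replicate numbers are shared by 2 pairs of arrays only, whose deviations from their group means correlated at -0.20 and -0.21. With 2 atscl26 arrays the deviations of that group mirror each other, so these values cannot tell whether the replicates were paired. The replicate block called 0 models in the 3 epidermis KCl tests.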
